A study of Mus musculus with 12 samples.

Results

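Mammalian clocks rest on repressors that close their feedback loops and on output factors that carry the rhythm to other genes. The 10 mouse genes described here were chosen by symbol, all 10 were found among the 56980 genes of the count matrix, and all 10 had enough counts to be tested. They were the period genes Per1, Per2 and Per3, the nuclear receptor genes Nr1d1 and Nr1d2, the PAR bZIP genes Dbp, Tef and Hlf, the bZIP repressor gene Nfil3 and the deubiquitinase gene Usp2.

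RNA was sequenced from whole livers of 12 male B6.Cg-Lepob/J (ob/ob) mice, genotype Lep-/-, which lack leptin and become obese. 6 of them had eaten a low protein diet (LPD, 5% of energy as protein) and the other 6 a standard protein diet (SPD, 25% of energy), each for 3 weeks from 8 weeks of age, so that livers were taken at 11 weeks. LPD replicate 1 is LPD by title and library code, but some of its other labels give the protein share of SPD. Mice of both diets carried the same genotype, ate freely and lived under equal hours of light and dark. The time of day of dissection is not given in the sources used here, so each level below belongs to 1 unstated time per liver, and a difference between the diets in that time cannot be told apart from the diet itself.

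In mouse liver, the activators CLOCK and BMAL1 (encoded by Arntl) turn on Per, Cry, Nr1d1, Nr1d2 and Dbp through E-boxes. PER and CRY proteins then block these activators. REV-ERB alpha and beta, the products of Nr1d1 and Nr1d2, repress Arntl, Npas2 and Nfil3 through response elements that they share with ROR receptors. DBP, TEF and HLF activate genes through D-boxes, to which NFIL3 binds as a repressor, and USP2 removes ubiquitin from clock proteins.

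Of the 10 mRNAs, 4 rose in LPD livers and none fell by edgeR, in which no further gene of the group had an unadjusted p under 0.05 in either direction. Nfil3 rose 2.25-fold, Hlf 1.56-fold, Usp2 1.55-fold and Per2 1.43-fold. Per1, Per3, Nr1d1, Nr1d2, Dbp and Tef did not pass. A share of 40% called stands beside 39.9% of all 13768 tested genes, so the number of calls does not set the group apart. By direction, 4 of the 10 were higher where 20.7% of all tested genes were, and 0 were lower where 19.2% were. The median log2 fold change (LPD over SPD) was 0.13 over the 10 genes and -0.00059 over all tested genes.

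Promoters of 9 of the 10 genes, all but Per2, were in the RefSeq table on GRCm38.p6, as 11 windows of 300 bases that run from 250 bases before a transcription start to 50 after it. Shown are the windows of the 3 risen genes with an entry, and those of Per1 and Per3, whose family member Per2 rose while they did not pass. Each is written 5′ to 3′ on the gene's own strand. Capitals mark a match, on either strand, to 1 of 5 motifs: the E-box CACGTG, the D-box TTATGTAA, the ROR and REV-ERB element TAGGTCA, the cAMP response element TGACGTC and the glucocorticoid response element, read as GNACA and TGTNC with any 3 bases between them. The windows are Hlf at chr11:90390868-90391167, minus strand; Nfil3 at chr13:52980990-52981289, minus strand; Usp2 at chr9:44084670-44084969, plus strand; the upstream one of 2 Per1 windows at chr11:69098699-69098998, plus strand; and Per3 at chr4:151044616-151044915, minus strand.
Hlf: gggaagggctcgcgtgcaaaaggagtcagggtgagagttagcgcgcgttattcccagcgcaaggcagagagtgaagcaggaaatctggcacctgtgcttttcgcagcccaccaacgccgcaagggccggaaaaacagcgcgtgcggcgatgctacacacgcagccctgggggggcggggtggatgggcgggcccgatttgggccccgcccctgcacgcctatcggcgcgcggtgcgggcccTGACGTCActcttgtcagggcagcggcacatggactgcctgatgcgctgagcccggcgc
Nfil3: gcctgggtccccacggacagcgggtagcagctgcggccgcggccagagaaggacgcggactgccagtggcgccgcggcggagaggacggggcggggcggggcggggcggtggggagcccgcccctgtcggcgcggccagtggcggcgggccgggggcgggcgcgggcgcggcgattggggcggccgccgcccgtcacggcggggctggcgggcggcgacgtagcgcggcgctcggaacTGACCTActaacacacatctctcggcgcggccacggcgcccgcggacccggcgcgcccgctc
Usp2: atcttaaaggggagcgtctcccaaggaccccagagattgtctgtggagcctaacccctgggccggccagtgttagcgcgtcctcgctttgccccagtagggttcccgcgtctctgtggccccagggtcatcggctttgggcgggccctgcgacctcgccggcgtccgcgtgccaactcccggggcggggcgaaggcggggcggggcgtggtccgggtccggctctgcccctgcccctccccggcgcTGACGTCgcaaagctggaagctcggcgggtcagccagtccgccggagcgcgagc
Per1: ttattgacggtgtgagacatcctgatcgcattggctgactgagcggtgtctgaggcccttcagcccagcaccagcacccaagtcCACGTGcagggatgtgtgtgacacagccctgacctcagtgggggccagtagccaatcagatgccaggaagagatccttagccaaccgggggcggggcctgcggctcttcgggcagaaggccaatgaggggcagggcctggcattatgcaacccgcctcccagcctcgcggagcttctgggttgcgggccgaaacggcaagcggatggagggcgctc
Per3: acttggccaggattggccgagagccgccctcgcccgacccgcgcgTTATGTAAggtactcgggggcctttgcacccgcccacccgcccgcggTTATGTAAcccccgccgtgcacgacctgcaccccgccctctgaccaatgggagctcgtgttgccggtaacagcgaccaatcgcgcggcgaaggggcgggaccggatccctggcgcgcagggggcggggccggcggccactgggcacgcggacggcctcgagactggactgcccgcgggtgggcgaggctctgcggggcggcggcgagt

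The Nfil3 window held TGACCTA, the ROR and REV-ERB element read on the other strand, 12 bases before the start, and 2.61% of 32851 mouse promoter windows of this length held the element. Hlf and Usp2 both held TGACGTC close to the start that the window was built on, 9 and 4 bases before it, against 3.21% of all windows. In Hlf the letters go on to TGACGTCA, which matches on both strands. The Usp2 window lies inside the gene, whose first base is at 44067021, and no window covers that upstream end. Per3 held 2 copies of TTATGTAA, 205 and 158 bases before the start, and 0.938% of all windows held 1 or more. CACGTG stood in the shown Per1 window, 166 bases before the start, and in both Tef windows, against 7.15% of all windows. The second Per1 window held TGACGTC 132 bases before its start. Both Per1 windows lie inside the gene, whose first base is at 69095217. The ends of the second Per1 window and of the Nr1d1 window were not found in a GENCODE M21 transcript of their gene. The windows of Dbp, Nr1d1 and Nr1d2 held none of the 5. The glucocorticoid element was in none of the 11 windows, and in only 0.475% of all windows. Its absence says only that these letters are not there. No match overlapped a match of another motif.

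**Figure D1:**
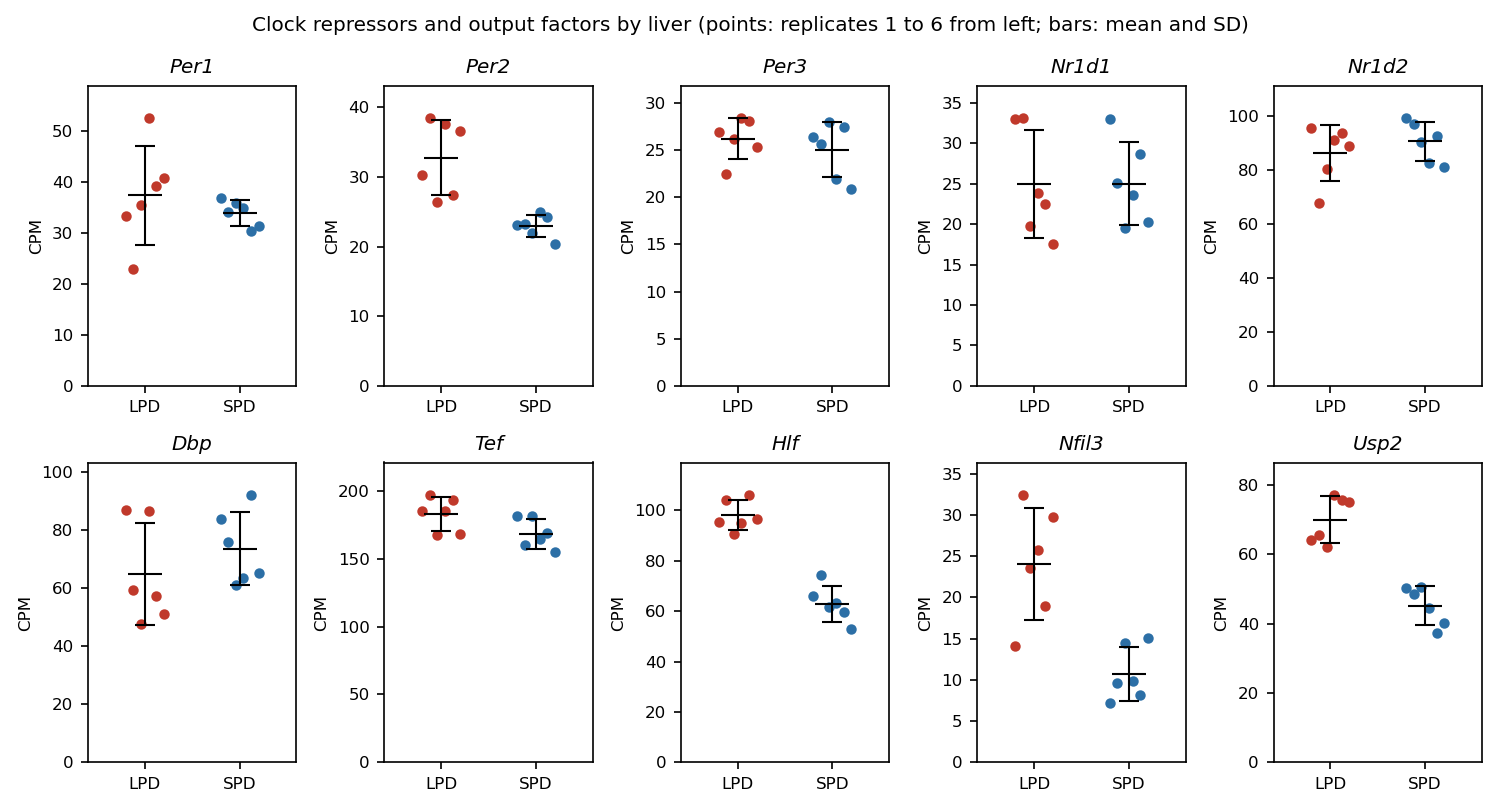
Counts scaled to library size (CPM, vertical axis from 0) of each gene in 6 LPD (red) and 6 SPD (blue) livers, with mean and SD as black bars. All LPD points lie above all SPD points for Per2, Hlf and Usp2, and Nfil3 overlaps through 1 LPD liver at 14.1 CPM.

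Among the period genes, which encode the repressors that bind CRY proteins, Per2 (ENSMUSG00000055866, chromosome 1, 91415982 to 91459324, minus strand, GRCm38) had 26.4 to 38.5 CPM in LPD livers, median 33.5, against 20.4 to 24.9 CPM in SPD livers, median 23.1. The lowest LPD liver lay above the highest SPD liver. The log2 fold change was 0.51 ± 0.095 (SE, n = 6 per diet, edgeR adjusted p = 0.000598). LPD replicates 2, 4 and 6 were the high ones, at 38.5, 37.6 and 36.6 CPM, and LPD replicate 3 was lowest.

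Per1 (ENSMUSG00000020893, chromosome 11, 69095217 to 69109960, plus strand), which answers acute signals as well as the clock, had 23.0 to 52.6 CPM in LPD livers, median 37.4, and 30.5 to 36.9 CPM in SPD livers, median 34.6. The LPD livers enclosed the SPD livers, with LPD replicate 2 lowest and LPD replicate 4 highest of all 12. The difference did not pass (0.14 ± 0.14, edgeR adjusted p = 0.444, 95% interval -0.15 to 0.43). The coefficient of variation was 26.1% in LPD and 7.50% in SPD livers, a spread that was not tested. Per3 (ENSMUSG00000028957, chromosome 4, 151003652 to 151044665, minus strand) had 22.5 to 28.4 CPM in LPD and 20.9 to 28.0 CPM in SPD livers, medians 26.5 and 26.1. Its ranges lay almost on each other, and its interval of 0.064 ± 0.080 (SE) ran from -0.11 to 0.24. Among the LPD livers, replicate 2 was lowest for Per1 and Per3 and highest for Per2.

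The genes of the REV-ERB repressors did not pass. Nr1d1 (ENSMUSG00000020889, chromosome 11, 98767932 to 98775333, minus strand) had 17.5 to 33.1 CPM in LPD livers, median 23.2, and 19.5 to 33.05 CPM in SPD livers, median 24.3. LPD replicates 1 and 2 and SPD replicate 1 were high, and the ranges of the diets nearly coincided. The log2 fold change was -0.0057 ± 0.16 (SE, edgeR adjusted p = 0.982), with a 95% interval of -0.35 to 0.34, or 0.783-fold to 1.27-fold. The sign of this estimate turned when any 1 of LPD replicates 3 to 6 or SPD replicates 1 and 5 was left out. Exons of Nr1d1 share 263 bases with exons of Thra on the opposite strand, which had 9.86 CPM in LPD and 10.5 CPM in SPD livers on plain library totals, and without a stated use of strand the reads of this stretch cannot be told apart.

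Nr1d2 (ENSMUSG00000021775, chromosome 14, 18204054 to 18239127, minus strand) had 67.8 to 95.5 CPM in LPD livers, median 90.1, and 81.3 to 99.3 CPM in SPD livers, median 91.7. LPD replicates 2 and 3 lay below all SPD livers, and the other LPD livers lay within the SPD range. Its log2 fold change was -0.072 ± 0.081 (SE, edgeR adjusted p = 0.513), with an interval of -0.24 to 0.10.

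Of the PAR bZIP activators, Hlf stood out from Dbp and Tef in its call, though the differences among the 3 genes were not tested. Hlf (ENSMUSG00000003949, chromosome 11, 90336536 to 90390895, minus strand) had 90.8 to 106 CPM in LPD livers, median 96.1, against 52.8 to 74.4 CPM in SPD livers, median 62.6. The diets did not overlap. LPD replicate 5 was highest and SPD replicate 6 lowest of all 12. The log2 fold change was 0.64 ± 0.071 (SE, n = 6 per diet, edgeR adjusted p = 7.85e-06), the smallest adjusted p of the 10 genes.

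Tef (ENSMUSG00000022389, chromosome 15, 81802421 to 81826863, plus strand) had 168 to 197 CPM in LPD livers, median 185, and 155 to 181 CPM in SPD livers, median 167. It was the steadiest of the 10 within the SPD diet, with a coefficient of variation of 6.59%. Its log2 fold change of 0.12 ± 0.060 (SE) did not pass (edgeR adjusted p = 0.131, interval -0.0091 to 0.24). Dbp (ENSMUSG00000059824, chromosome 7, 45705088 to 45710203, plus strand), strongly rhythmic in mouse liver, had 47.7 to 87.0 CPM in LPD livers, median 58.4, and 60.9 to 92.1 CPM in SPD livers, median 70.4. LPD replicates 2, 3, 5 and 6 lay below all SPD livers, at 47.7 to 59.5 CPM, while LPD replicates 1 and 4 reached 87.0 and 86.5 CPM. The log2 fold change was -0.18 ± 0.15 (SE, edgeR adjusted p = 0.373) with an interval of -0.51 to 0.14, or 0.704-fold to 1.11-fold. Exons of Dbp share 539 bases with exons of Sphk2 on the opposite strand, which had 31.6 CPM in LPD and 24.1 CPM in SPD livers on plain library totals.

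Nfil3 (ENSMUSG00000056749, chromosome 13, 52967209 to 52981073, minus strand), which opposes the PAR bZIP factors at D-boxes, had the largest fold change of the 10. It had 14.1 to 32.5 CPM in LPD livers, median 24.7, against 7.25 to 15.1 CPM in SPD livers, median 9.74. All LPD livers but 1 lay above all SPD livers. LPD replicate 1, whose labels conflict on its protein share, had 14.1 CPM and lay below SPD replicates 3 and 6, at 14.5 and 15.1 CPM. The log2 fold change was 1.17 ± 0.21 (SE, n = 6 per diet, edgeR adjusted p = 0.000431), with an interval of 1.65-fold to 3.05-fold. These levels rest on 309 to 740 counts per LPD library and 150 to 318 per SPD library.

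Usp2 (ENSMUSG00000032010, chromosome 9, 44067021 to 44095627, plus strand) had 62.1 to 77.2 CPM in LPD livers, median 70.4, against 37.2 to 50.5 CPM in SPD livers, median 46.6. Every LPD liver lay above every SPD liver, and LPD replicates 4, 5 and 6 were the high ones among the LPD livers. The log2 fold change was 0.63 ± 0.084 (SE, n = 6 per diet, edgeR adjusted p = 3.77e-05). Usp2 has 9 transcripts in GENCODE M21, and the deposited counts are per gene. Across the group, 3 of 10 genes had diets that did not overlap, where 19.9% of all tested genes did not overlap. All 3 had LPD above, as 10.2% of tested genes did, and none of the 10 had all LPD livers below, as 9.73% did.

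Levels were compared between genes only after scaling by gene length, as TPM (reads per base of gene, scaled to the same total in each library). In LPD livers the order of mean TPM was Tef, Dbp, Usp2, Nr1d2, Hlf, Nfil3, Nr1d1, Per1, Per2 and Per3. In SPD livers it was Tef, Dbp, Nr1d2, Usp2, Hlf, Nr1d1, Per1, Nfil3, Per3 and Per2. Tef led with 82.8 ± 4.78 TPM in LPD and 74.7 ± 5.36 TPM in SPD livers (SD, n = 6), and its range overlapped that of Dbp in both diets. Usp2 was at 54.7 ± 6.40 TPM in LPD and 34.5 ± 4.32 TPM in SPD livers, and Nfil3 at 22.04 ± 6.38 TPM in LPD and 9.68 ± 3.31 TPM in SPD livers. Per3 was last in LPD livers with 8.10 ± 0.867 TPM, and Per2 last in SPD livers with 7.12 ± 0.397 TPM. Most neighbours in these orders overlapped over their 6 livers. The exceptions were Usp2 above Nr1d2 and Hlf above Nfil3 in LPD livers, and Dbp above Nr1d2 and Usp2 above Hlf in SPD livers.

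**Figure D2:**
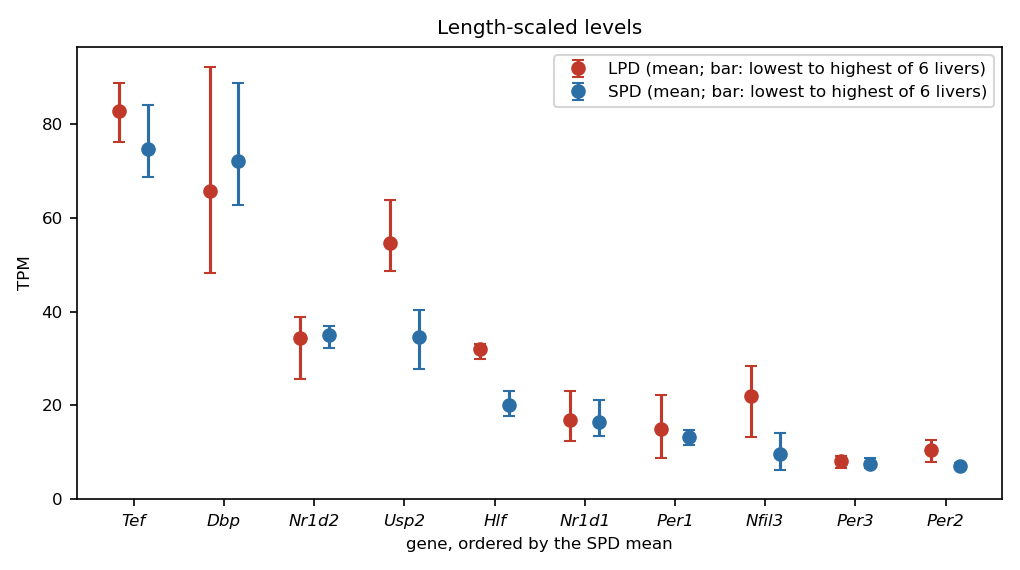
Length-scaled levels in TPM (vertical axis from 0) of the 10 genes, ordered by the SPD mean; points are means over 6 livers and bars run from the lowest to the highest liver, LPD red and SPD blue. Tef and Dbp are highest in both diets, and Usp2 lies above Nr1d2 in LPD livers with no overlap.

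The genes that work with this group in the core loop were described from a list of 13, of which 11 could be tested. Of these, 5 rose and 1 fell, which is 54.5% called beside 39.9% of all tested genes, with a median of 0.28. Of the CRY repressors, Cry1 had 13.8 to 19.7 CPM in LPD livers, median 17.9, against 8.84 to 15.02 CPM in SPD livers, median 11.1, and rose by 0.60 ± 0.13 (SE, edgeR adjusted p = 0.00149). Cry2 had 37.9 to 44.0 CPM in LPD livers, median 39.9, against 29.3 to 35.6 CPM in SPD livers, median 32.2, with no overlap (0.32 ± 0.058, edgeR adjusted p = 0.000439). The repressor gene Ciart rose to 16.3 ± 5.18 CPM in LPD livers, against 9.85 ± 1.89 CPM in SPD livers (0.73 ± 0.18, edgeR adjusted p = 0.00408). Among LPD livers, Ciart was highest in replicates 4 and 6, which were the top 2 for Per1 too.

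On the activator side, Rora, the gene of a receptor that opposes the REV-ERBs at shared elements, rose (0.49 ± 0.12, edgeR adjusted p = 0.00492), with 74.6 ± 17.0 CPM in LPD and 53.03 ± 5.03 CPM in SPD livers. Clock rose by 0.28 ± 0.090 (edgeR adjusted p = 0.0226), with 26.4 ± 3.69 CPM in LPD and 21.8 ± 1.82 CPM in SPD livers, and this call was lost without LPD replicate 2 (adjusted p = 0.0526), without SPD replicate 2 (0.0539) and without LPD replicates 2 and 5 (0.128). Arntl, low in all livers at 1.16 to 3.09 CPM in LPD and 0.784 to 2.32 CPM in SPD livers, did not pass (0.67 ± 0.30, edgeR adjusted p = 0.0887) and rests on 27 to 68 counts per LPD and 18 to 51 per SPD library. It passed without LPD replicate 4 (adjusted p = 0.0321) or without SPD replicate 3 (0.0443). Bhlhe40, Bhlhe41 and Arntl2 did not pass either. Npas2, with 1 to 7 counts in LPD and 1 to 5 counts in SPD libraries, and Rorb, with 0 counts in every LPD library and 1 count in 1 SPD library, could not be tested.

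Timeless, which in mammals also serves DNA replication, fell (-0.92 ± 0.15, edgeR adjusted p = 0.000217), to 2.91 ± 0.580 CPM in LPD livers, against 5.54 ± 0.913 CPM in SPD livers, with no overlap. The 5 cycling cell markers Mki67, Top2a, Ccnb1, Cdk1 and Birc5 fell in 5 of 5 cases, where 19.2% of all tested genes fell. Their summed levels were 4.45 to 9.43 CPM in LPD and 20.8 to 27.1 CPM in SPD livers. The part of cycling cells in the Timeless result was not tested.

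**Figure D3:**
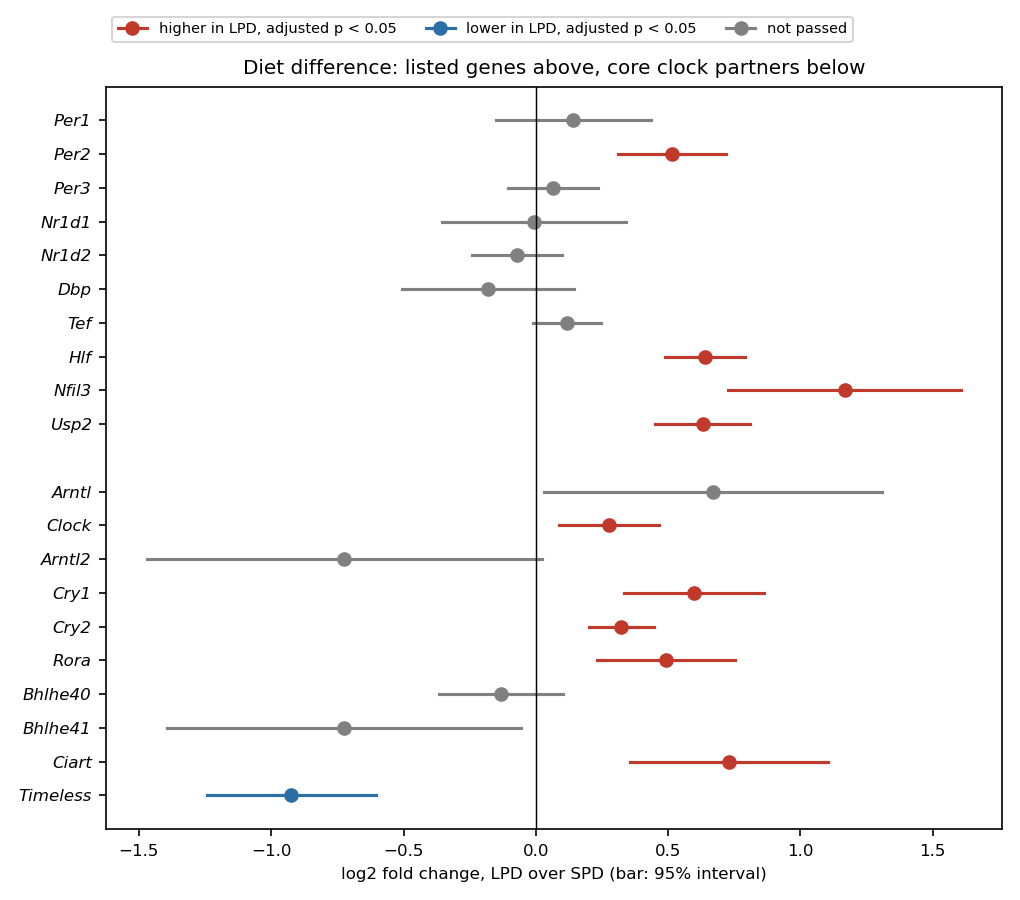
Log2 fold change of LPD over SPD (horizontal axis) with its 95% interval for the 10 genes, above, and 10 tested core clock partners, below; red is higher and blue lower at an adjusted p under 0.05, grey did not pass. Per2, Hlf, Nfil3, Usp2 and 5 partners are red and Timeless is blue. The intervals, which are not adjusted for the number of genes, also miss 0 for Arntl (0.030 to 1.31) and Bhlhe41 (-1.39 to -0.058), which are grey.

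Livers of 1 diet differed among themselves in these genes. In SPD livers, Nr1d1 ran from 33.05 CPM in replicate 1, 28.6 in replicate 5, 25.1 in replicate 2 and 23.5 in replicate 4 to 20.2 in replicate 6 and 19.5 in replicate 3. Nfil3 ran nearly the other way in the same livers, with 7.25 CPM in replicate 1, 8.14 in replicate 5, 9.61 in replicate 2, 9.87 in replicate 4, 15.1 in replicate 6 and 14.5 in replicate 3. Arntl was lowest in SPD replicates 5 and 1, at 0.784 and 0.918 CPM, and highest in replicates 3 and 6, at 2.32 and 2.02 CPM. Its levels rest on 18 to 51 counts per SPD library, and its order was not tested against that of other genes. Dbp was highest in SPD replicates 5 and 1, at 92.1 and 83.7 CPM, and lowest in replicate 3. Not all genes ran this way, as Per1 and Usp2 were lowest in SPD replicate 5. Among LPD livers, replicate 2 was highest for Nr1d1, Nfil3 and Arntl alike.

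All 45 pairs of the 10 genes were compared within each diet over 6 livers, 90 comparisons in all. By exact two-sided permutation tests none passed after Benjamini-Hochberg adjustment, and 2 pairs in LPD and 3 in SPD livers had an unadjusted p under 0.05. That makes 5 of 90, close to the 4.5 that chance gives on average at this threshold. With 6 livers the smallest p an exact test can give is 0.00139, and 90 times that is 0.125. The smallest p was that of Nr1d1 and Nfil3 in SPD livers (Pearson r = -0.97, exact permutation p = 0.00417, adjusted p = 0.375; Spearman rho = -0.94, exact permutation p = 0.0167, adjusted p = 0.75), and r was -0.96 without the 2 livers farthest from the median of Nr1d1. In LPD livers the same pair had r = -0.29 (exact permutation p = 0.579, adjusted p = 0.857) and rho = 0.029 (exact permutation p = 1.0), and LPD replicate 2 was highest for both genes. The difference between the diets in this relation was not tested. The 2 LPD pairs under 0.05 were Per1 and Per3 (r = 0.85, exact permutation p = 0.0444, adjusted p = 0.75; rho = 0.60, exact permutation p = 0.242) and Per3 and Nr1d2 (r = 0.88, exact permutation p = 0.0375, adjusted p = 0.75; rho = 0.71, exact permutation p = 0.136). Without the 2 livers farthest from the median of the first gene, r was -0.16 for Per1 and Per3 and 0.53 for Per3 and Nr1d2. Leaving these livers out also narrows the range of the first gene. A lower r therefore cannot show that a relation rests on them. Per1 and Usp2 had r = 0.94 in SPD livers (exact permutation p = 0.0111, adjusted p = 0.5, and rho = 0.89, exact permutation p = 0.0333). This r was 0.51 without the 2 livers farthest from the median of Per1, with the same limit. Nr1d1 and Dbp had r = 0.87 in SPD livers (exact permutation p = 0.0306, adjusted p = 0.75; rho = 0.89, exact permutation p = 0.0333), and 0.88 without 2 such livers.

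**Figure D4:**
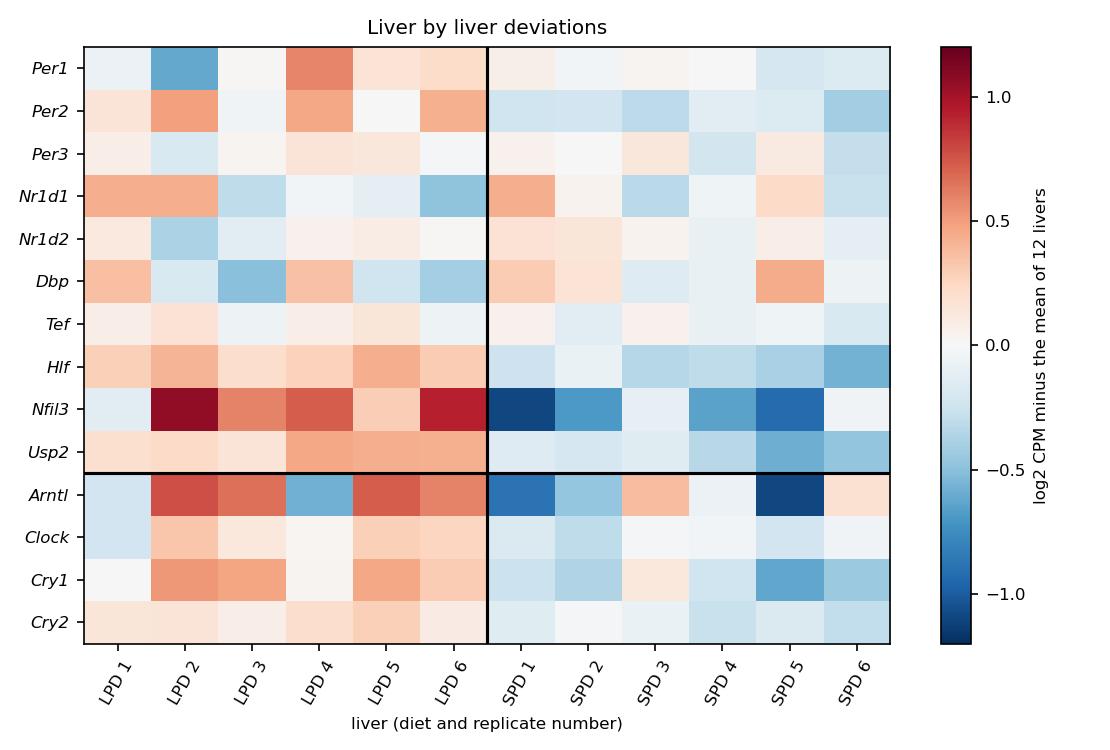
Deviation of log2 CPM from the mean of the 12 livers for the 10 genes (above the line) and Arntl, Clock, Cry1 and Cry2 (below it), 1 column per liver with LPD on the left. Hlf and Usp2 are above the mean in all LPD and below it in all SPD livers, and so are Per2 except in LPD replicate 3 and Nfil3 except in LPD replicate 1, which fall below it. Nr1d1 and Dbp have livers above and below the mean in both diets, as with Nr1d1 at 33.1 CPM in LPD replicate 2 and 17.5 CPM in LPD replicate 6.

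Among 10944 other genes, the ones most like Nr1d1 in their deviations from the diet mean over the 12 livers were Slc35c2 (Pearson r = 0.93), Rab5b (0.89) and Pfdn2 (0.88). Those most like Dbp were Pdrg1 (0.89), Gstp3 (0.88) and Stbd1 (0.88). These are the highest of many values over libraries that share depth and composition, and they are given as a description.

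Genes under or around the clock were described from further lists, by counts alone. These lists were chosen with earlier results of these data known, so their shares are a description. Of 10 genes tied to PAR bZIP factors in liver, 6 rose and 1 fell, with a median of 0.54; among all tested genes 20.7% rose and 19.2% fell. Nr1i3, the gene of the xenobiotic receptor CAR, rose to 166 ± 43.2 CPM in LPD livers, against 49.5 ± 7.32 CPM in SPD livers (1.75 ± 0.15, edgeR adjusted p = 5.80e-07). The carboxylesterase gene Ces3a rose by 2.45 ± 0.22, and Por, which feeds electrons to cytochromes P450, by 0.91 ± 0.097. Cyp2a4 fell (-1.10 ± 0.24) and was chosen after its value was seen.

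Of 18 liver clock outputs, which share Cdkn1a with the glucocorticoid list, 7 rose and 3 fell (55.6% called, beside 39.9% of all tested genes). The secreted protein gene Tsku rose by 1.97 ± 0.13, the vasopressin receptor gene Avpr1a by 1.53 ± 0.18 and the elongase gene Elovl3 by 2.48 ± 0.31, to 27.2 ± 10.7 CPM in LPD livers, against 4.86 ± 2.03 CPM in SPD livers. The kinase gene Wee1 (-0.22 ± 0.062), Dtx4 (-0.32 ± 0.11) and the lactate and ketone body transporter gene Slc16a1 (-0.39 ± 0.074) fell; these 3 were picked with their values known. The Wee1 and Dtx4 calls were lost without LPD replicates 2 and 5 together (adjusted p = 0.0572 and 0.135), and that of Dtx4 also without any 1 of LPD replicates 2 and 5 or SPD replicates 2 and 5.

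Of 12 genes that glucocorticoids induce, 10 rose and none fell by edgeR (83.3% called, beside 39.9% of all tested genes, median 0.72; at an unadjusted p under 0.05 also 10 and 0). Because the list was chosen with earlier results of these data known, this share is not independent evidence. The part of glucocorticoids in the results of Per1, Per2 and the other clock genes was not tested. Fkbp5, a chaperone of the glucocorticoid receptor, rose to 195 ± 24.9 CPM in LPD livers, against 101 ± 8.87 CPM in SPD livers (0.95 ± 0.087, edgeR adjusted p = 1.30e-06). Zbtb16 rose by 1.58 ± 0.20 and Pik3r1 by 0.59 ± 0.082. Dusp1 (0.15 ± 0.27) and Gadd45b (-0.052 ± 0.20) did not pass and were chosen after their values were seen.

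Kinases and ubiquitin ligases of clock proteins were called in 4 of 14 cases (28.6%, below the 39.9% of all tested genes), with Siah2 (0.58 ± 0.11) and Csnk1a1 (0.18 ± 0.042) among the 3 that rose, and Btrc (-0.45 ± 0.083), a ligase subunit that marks PER proteins for breakdown, the 1 that fell. Genes that respond to temperature, a cue that can entrain clocks, were called in 3 of 9 cases (33.3%, also below 39.9%). Hsph1 (0.47 ± 0.12) and Hspb1 (0.37 ± 0.13) rose and Hsp90aa1 (-0.29 ± 0.064) fell. The Hspb1 call was lost without any 1 of LPD replicates 1, 3 and 4 or SPD replicates 1, 3 and 4. Feeding and fasting markers rose in 6 and fell in 2 of 14 cases (57.1% called, beside 39.9% of all tested genes), with Fgf21 (3.08 ± 0.34) among those that rose and Fasn (-2.75 ± 0.21) and Pdk4 (-0.85 ± 0.19, chosen after its value was seen) the 2 that fell.

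**Figure D5:**
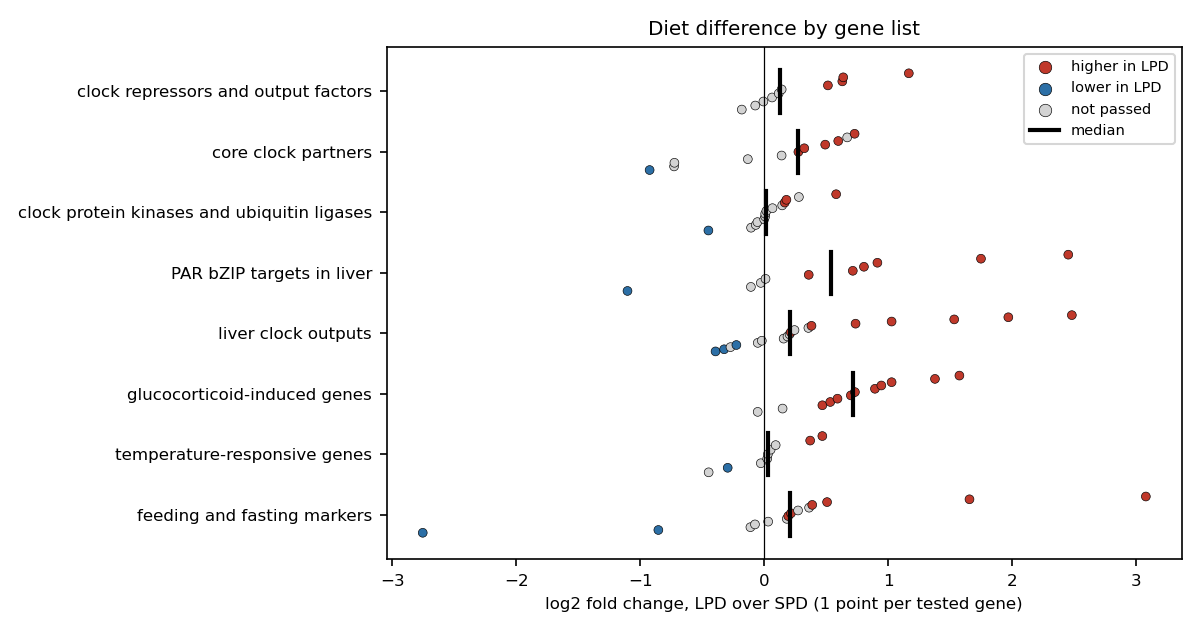
Log2 fold change of LPD over SPD (horizontal axis), 1 point per tested gene and 1 row per list, with the median as a black bar; red is higher and blue lower at an adjusted p under 0.05, grey did not pass. The median is 0.13 for the clock repressors and output factors and 0.72 for the glucocorticoid-induced genes. All lists were chosen with earlier results of these data known.

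Library totals were 19404340 to 23681408 counts in LPD and 19374676 to 23710930 in SPD livers. LPD replicate 1 is LPD by title and library code, whereas 2 other labels of this mouse give the protein share of SPD, and without it the same 4 genes were called. LPD replicates 2 and 5 stood apart on the first principal component, at -48.7 and -44.6 against -22.5 to -15.3 for the other LPD livers, and without both the same 4 genes were called as well. The library codes LP4 and LP5 were used in LPD alone, and SP1 and SP2 in SPD alone. Any effect tied to a code therefore cannot be told apart from diet. Summed hepatocyte markers overlapped between the diets, at 65714 to 91935 CPM in LPD and 77233 to 86331 CPM in SPD livers, but 3 of the 7 rose with no overlap: Apoa1 (1.35-fold), Serpina1a (1.41-fold) and Hnf4a (1.33-fold). Among all tested genes, 20.7% rose and 10.2% had all LPD livers above all SPD livers. Alb makes up most of the hepatocyte sum and did not pass. No cell type marker was at 0 in all libraries. Of 5 lipid-associated macrophage markers, Cd9 and Spp1 fell, and Trem2, Gpnmb and Itgax did not pass. Their sum, in which Spp1 was largest, was 73.8 to 205 CPM in LPD and 275 to 561 CPM in SPD livers. Of 7 stellate cell markers, Rgs5, Col1a1 and Col3a1 fell, and Lrat, Reln, Dcn and Colec11 did not pass. Falls of 2 of 5 and 3 of 7 stand beside 19.2% of all tested genes. The stellate cell sum was 397 to 649 CPM in LPD and 567 to 766 CPM in SPD livers. In LPD replicates 2 and 5, the hepatocyte sum was 85020 and 91935 CPM, the highest of the LPD livers. Their macrophage sum, at 81.8 and 73.8 CPM, and stellate cell sum, at 397 and 418 CPM, were the lowest of the LPD livers. The part of these cells in the changes of Nfil3, Hlf, Usp2 and Per2 was not tested, and in bulk RNA fewer cells of a type and less RNA per cell cannot be told apart.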

How the data were processed

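Per the labels' protocols, liver RNA was extracted with TRIzol, treated with DNase I and made into libraries with an Illumina TruSeq kit. The submitters' processing notes name TopHat, DESeq2 and mm10, with no role or version. The authors deposited expected counts per gene, not scaled between libraries, for 56980 genes in 12 libraries of 19374676 to 23710930 counts. How reads were counted, and whether by strand, is not given in the sources used here. After rounding, the test was edgeR 4.0.16 under R 4.3.3: filterByExpr (minimum count 10, minimum total 15), TMM scaling, the quasi-likelihood test of LPD against SPD, and Benjamini-Hochberg adjustment over all 13768 tested genes, with calls under 0.05. The test was also run on simulated data with known changes, built from the levels and spread of these libraries. Standard errors (SE) were derived from the F statistic and the fold change. CPM use TMM-scaled totals. TPM were computed from the counts and the deposited gene lengths. Pairs of genes were compared within a diet using log2 CPM (prior count 2), by exact two-sided permutation tests. Gene positions came from GENCODE M21 on GRCm38, promoters from RefSeq. Alternatives were other scalings and filters, DESeq2 1.42.0, limma-voom (limma 3.58.1), a replicate block, and left-out libraries.

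The genes described and the lists beside them were chosen with earlier results of these data known. Named are all 10 genes, the core clock partners, up to 3 called genes with the smallest adjusted p of each other list, and the 3 genes most like Dbp and Nr1d1 whose average log2 CPM reached 1, leaving out predicted genes and pseudogenes. A few genes of these lists are counted in them but not reported here by name. Other genes named are said to be chosen after their values were seen.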

Additional observations from a re-analysis of the deposited data

Results flagged for a closer look

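Of 92 sets of 6 livers (the named and tested genes, each in both diets), 4 held 1 liver whose gap to its nearest neighbour was larger, as a share of the whole range, than Dixon's 95% limit for 6 samples. Chance gives such a liver in about 5% of sets, and none of the 4 concerned the 10 clock genes of the report. LPD replicate 1, whose labels conflict on its protein share, had 147 CPM of Fkbp5 where the other LPD livers had 194 to 219 CPM. LPD replicate 2 had 22.0 CPM of Siah2 against 13.5 to 16.5 CPM in the others of its diet. SPD replicate 3 had 108 CPM of Ces3a against 53.3 to 70.5 CPM, and 38.0 CPM of Pdk4 against 72.4 to 81.8 CPM, in the other SPD livers.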

How the results depend on the processing

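Per2, Hlf, Nfil3 and Usp2 were called higher in all 21 alternatives run, with log2 fold changes of 0.47 to 0.57, 0.54 to 0.69, 1.07 to 1.29 and 0.47 to 0.67. None of the other genes of the 10 was called in any of the 21. Per2, Hlf, Nfil3 and Usp2 had their highest edgeR adjusted p, 0.00702, 0.000543, 0.00431 and 0.00169, with libraries coded SP1 or LP4 alone. In that setting 3520 genes were called in place of 5496, and 3 core clock partners rose in place of 5. Fewer libraries enter there. Core clock partners called lower numbered 2 in place of 1 by limma-voom and with the replicate number as a block, and 1 to 2 without 1 library each, with Bhlhe41, Bhlhe40 or Arntl2 as the added gene; the cause was not tested. Same-numbered LPD and SPD libraries had deviations from their diet means that correlated between -0.054 and 0.097, and the labels tie no number to a shared cage or day, so the numbers were not taken as pairs. The library that correlated best with a given one carried its own number in 1 of 6 cases. With the replicate block, 5230 genes were called in all and the same 4 of the 10 rose. Codes SP1 and LP4 alone also ended the calls of Clock (adjusted p = 0.216), Ciart (0.0579), Csnk1a1 (0.0868), Wee1 (0.108), Dtx4 (0.14) and Pdk4 (0.0614). The block ended the calls of Dtx4 (adjusted p = 0.0512) and Hspb1 (0.0831). The Nr1d1 estimate lay between -0.10 and 0.091 without 1 library each and was 0.12 with codes SP1 and LP4 alone. That of Dusp1 lay between -0.018 and 0.37, and that of Gadd45b between -0.14 and 0.061, without 1 library each, and Gadd45b was 0.014 with those codes alone. No pair of genes passed with a prior count of 0.5 either. Npas2 and Rorb had too few counts to be tested.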
